A study of Mus musculus with 6 samples.

Results

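The NF-kB transcription factors and the proteins that restrain them were examined in mouse pre-B leukaemia cells by means of 10 listed genes, 5 encoding subunits of the factor and 5 encoding inhibitors. Of the 10, 9 had a probe set assigned to that gene alone and were measured, among 19938 genes in all; Nfkb1 was not analysed here. Each of the 9 had 1 such probe set. The 6 samples were pre-B cells of strain 129P2/OlaHsd transformed with BCR-ABL1, the fusion kinase of Philadelphia chromosome-positive acute lymphoblastic leukaemia. In 3 samples the cells had been transduced with PMIP-CRE-ERT2, in which the Cre recombinase acts only once a tamoxifen metabolite is bound. The other 3 had received PMIP-ERT2, the same hormone-binding domain without Cre. Both groups were Ptpn6 +/fl, that is with 1 floxed and 1 unfloxed allele of the gene for the phosphatase SHP-1, both were selected with puromycin, and both were kept for 2 days in 0.5 micromolar 4OH-tamoxifen. The comparison is between the vectors on that heterozygous background. The labels do not say whether replicates were grown or derived separately, so a p-value here measures only how the arrays of a group scatter, which may be technical scatter.

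NF-kB proteins work as pairs of subunits that bind DNA at short kB sites. In resting cells the classical inhibitors, IkB alpha, beta and epsilon, hold these pairs in the cytoplasm until the IkB kinase complex marks the inhibitor for destruction. In the non-canonical route the kinase NIK instead drives processing of the p100 precursor, the product of Nfkb2, to p52, which pairs with RELB. Several inhibitor and subunit genes are themselves switched on by NF-kB, which gives the pathway a built-in brake, and in B-lineage cells the pathway is known for its part in survival and in signalling from the pre-B cell receptor.

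The promoters of the genes are shown first, because kB sites in them are the known basis of that feedback. In the RefSeq promoter table of the assembly GRCm38.p6, which gives 300 bases for each annotated start (250 before it and 50 after), 7 of the 9 measured genes had a window. Both strands of every window were searched for the kB consensus, a 10-base motif, and matches that overlap on the 2 strands of a palindromic site were taken as 1 place. At least 1 match lay in the windows of 5 of these 7 genes (Nfkb2, Rel, Nfkbia, Nfkbie and Tnfaip3), against 5.75% of the 15614 tested genes that had a window. Rela and Nfkbib had no match in theirs. A match describes the letters of the window and is not evidence of binding in these cells. The stretches of 60 bases that follow, 1 for each gene, show the matches inside them in capitals, written 5′ to 3′ along the strand of the gene, for the subunit genes and then the inhibitor genes.
Nfkb2 (chr19:46304687-46304746, plus strand): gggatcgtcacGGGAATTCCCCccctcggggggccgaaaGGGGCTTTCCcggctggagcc
Rel (chr11:23771027-23771086, minus strand): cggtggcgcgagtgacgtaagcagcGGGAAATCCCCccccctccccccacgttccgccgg
Nfkbia (chr12:55492642-55492701, minus strand): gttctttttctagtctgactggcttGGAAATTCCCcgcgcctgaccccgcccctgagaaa
Nfkbie (chr17:45555569-45555628, plus strand): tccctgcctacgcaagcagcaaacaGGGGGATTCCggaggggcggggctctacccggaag
Tnfaip3 (chr10:19015388-19015447, minus strand): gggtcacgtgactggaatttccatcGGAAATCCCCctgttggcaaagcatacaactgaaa
The first capital lay 39 bases before the start in Nfkb2, 92 in Rel, 29 in Nfkbia, 106 in Nfkbie and 12 in Tnfaip3. Nfkb2 has 3 annotated starts, each with at least 1 match, and Tnfaip3 has 2, of which 1 had matches. Not printed are a further match 125 bases before that start of Tnfaip3 and the matches in the windows of the other 2 starts of Nfkb2.

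Median log2 expression was between 7.90 and 7.98 on the 6 arrays, and Pearson correlations between arrays over all probe sets were 0.991 to 0.996, with no array standing apart. Ptpn6, the floxed gene, had log2 values of 11.36, 11.25 and 11.20 in the CRE-ERT2 arrays and 11.25, 11.39 and 11.39 in the ERT2 arrays, a difference of -0.07 (SE 0.08, limma adjusted p = 0.759). Whether its probe set lies in the floxed part is not known here, so the groups are called by their labels throughout. Of 13 pre-B cell marker genes measured, the mean log2 values ran from 8.42 for the recombinase gene Rag2 to 14.43 for the surrogate light chain gene Igll1. Rag2 (-0.53) and the interleukin-7 receptor gene Il7r (-0.43) fell and Dntt, the nucleotide-adding enzyme of V(D)J joining, rose (0.48). Among 10 macrophage and monocyte markers the highest mean was 10.02, for the protease gene Ctss, which rose (0.33). Of these markers, Csf1r, Adgre1 and Itgam averaged 6.84, 6.18 and 6.65 in CRE-ERT2 arrays and 6.80, 6.31 and 6.52 in ERT2 arrays. Cd68 and Lyz2 were brighter, at 9.18 and 8.83 in CRE-ERT2 arrays and 9.14 and 9.05 in ERT2 arrays. Lyz2 (-0.22), Mrc1 (-0.25) and Marco (0.14) differed in differing directions and did not pass. Summed over the 10, log2 values were 75.96 to 76.38 in CRE-ERT2 arrays and 75.79 to 76.45 in ERT2 arrays. No T cell, granulocyte, NK cell, erythroid or stromal marker passed in either direction, and signal over background is unknown here.

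No measured NF-kB subunit or inhibitor gene passed the test between the groups. Over all genes, 914 of 19938 (4.58%) passed with limma at an adjusted p under 0.05 (called genes). Of the 9 members 0 passed, which for so few genes is near that share. An unadjusted p under 0.05 was found for 1 of the 9, Nfkbiz, and for 16.4% of all genes. The 9 log2 changes lay between -0.15 and 0.22, with a median of 0.04, against a median of -0.03 over all genes. All 4 measured subunits had a positive sign (0.02 to 0.09), while of the 5 inhibitors 2 were positive and 3 negative (median -0.02). The median size of a change, regardless of sign, was 0.04 for the members and 0.08 for all genes. The 3 CRE-ERT2 arrays lay wholly on one side of the 3 ERT2 arrays for 3 of the 9 members (33.3%), Nfkb2, Nfkbib and Nfkbiz, and for 22.5% of all genes. In whole-sample RNA of this kind a change in the number of expressing cells and a change in RNA per cell cannot be told apart.

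**Figure D1:**
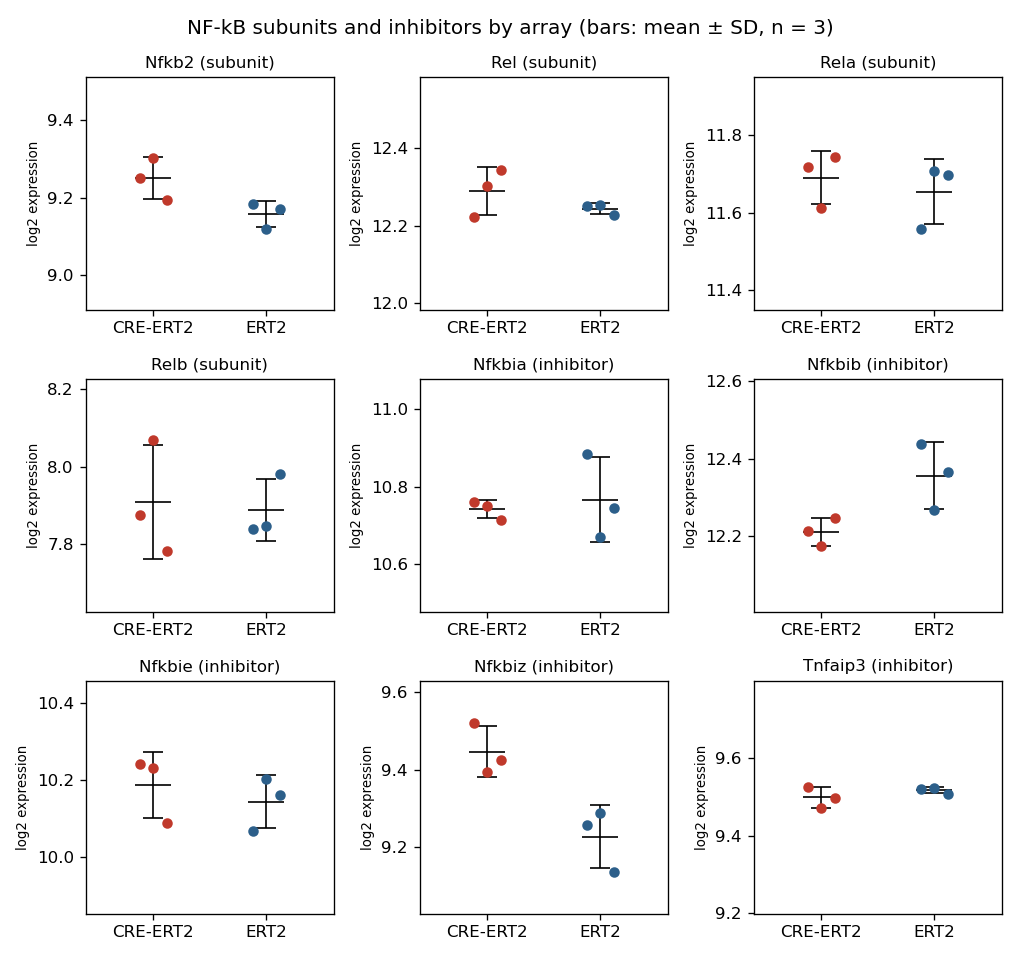
Log2 expression (vertical axes, each spanning 0.6 log2 units) of the 9 measured genes in the 3 CRE-ERT2 arrays (red) and the 3 ERT2 arrays (blue), with points for arrays and bars for the mean ± SD. The groups are apart for Nfkb2, Nfkbib and Nfkbiz and overlap for the other 6 genes.

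Among the subunits, Rela encodes p65, the partner in the commonest activating pair. Rela had log2 values of 11.72, 11.61 and 11.74 in the CRE-ERT2 arrays and 11.56, 11.71 and 11.70 in the ERT2 arrays. The groups overlapped, since the lowest value was in ERT2 replicate 1 and CRE-ERT2 replicate 2 lay below the other 2 ERT2 arrays. The difference was 0.04 (95% confidence interval -0.13 to 0.20, limma adjusted p = 0.905), which bounds the ratio of CRE-ERT2 to ERT2 between 0.915 and 1.15.

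Rel encodes c-Rel, the subunit most associated with lymphocytes. Its log2 values were 12.22, 12.30 and 12.34 in CRE-ERT2 arrays, against 12.25, 12.25 and 12.23 in ERT2 arrays. The ERT2 arrays were almost level and lay within the range of the CRE-ERT2 arrays. The change was 0.05 (-0.11 to 0.20, limma adjusted p = 0.860), and it was 0.08 without CRE-ERT2 replicate 1 and 0.02 without CRE-ERT2 replicate 3.

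The non-canonical pair is made from Nfkb2 and Relb. Nfkb2 had 9.25, 9.30 and 9.19 on the log2 scale in CRE-ERT2 arrays and 9.18, 9.12 and 9.17 in ERT2 arrays. All 3 CRE-ERT2 values were above all 3 ERT2 values, by a margin as small as that between 9.195 and 9.182. The difference of 0.09 (-0.06 to 0.25) did not pass (limma adjusted p = 0.612). Relb, at 7.88, 8.07 and 7.78 in CRE-ERT2 arrays and 7.84, 7.85 and 7.98 in ERT2 arrays, was the most scattered of the 9 genes within groups, with a within-group SD of 0.12, and its difference was 0.02 (-0.17 to 0.21, limma adjusted p = 0.959). In the GRCm38.p6 gene table Nfkb2 overlaps Psd, whose change was 0.02, and a long non-coding RNA that was not measured.

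Of the classical inhibitors Nfkbib lay furthest from 0. Nfkbib encodes IkB beta, the inhibitor that returns slowly after stimulation. It had log2 values of 12.21, 12.17 and 12.25 in the CRE-ERT2 arrays and 12.44, 12.27 and 12.37 in the ERT2 arrays, so that all 3 CRE-ERT2 arrays were the lower. The difference was -0.15 (SE 0.07, -0.31 to 0.01), a ratio of 0.904, and did not pass (limma adjusted p = 0.366). Nfkbib overlaps Ccer2 in the gene table, and Ccer2 was not measured separately.

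Nfkbia encodes IkB alpha, the fast, NF-kB-induced brake whose promoter is printed above. Its values were 10.76, 10.75 and 10.72 in CRE-ERT2 arrays and 10.89, 10.67 and 10.74 in ERT2 arrays. The 3 CRE-ERT2 arrays were close together, with an SD of 0.02 against 0.11 in ERT2 arrays, and lay between the highest and the lowest ERT2 array. The change was -0.03 (-0.19 to 0.14, limma adjusted p = 0.940), and the sign turned after a further quantile normalization (0.02).

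Nfkbie encodes IkB epsilon, a further NF-kB-induced brake in B cells. With 10.24, 10.23 and 10.09 in CRE-ERT2 arrays and 10.07, 10.20 and 10.16 in ERT2 arrays, its groups overlapped and the difference was 0.04 (-0.12 to 0.21, limma adjusted p = 0.881). It was 0.09 without CRE-ERT2 replicate 3 and 0.0048 without ERT2 replicate 1.

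Tnfaip3 encodes A20, the ubiquitin-editing enzyme that shuts signalling off upstream of the IkB kinases and is itself an NF-kB target. It was the steadiest of the 9 genes. Its log2 values were 9.53, 9.47 and 9.50 in CRE-ERT2 arrays and 9.52, 9.52 and 9.51 in ERT2 arrays, a span of 0.06 over the 6 arrays. The ERT2 arrays lay within the CRE-ERT2 range. The difference was -0.02 (-0.17 to 0.13, limma adjusted p = 0.951), and it took the opposite sign after a further quantile normalization (0.01).

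Nfkbiz had the greatest difference of the 9. It encodes IkB zeta, an atypical nuclear member of the IkB family that can activate as well as repress genes together with p50. Its log2 values were 9.52, 9.39 and 9.42 in the CRE-ERT2 arrays and 9.26, 9.29 and 9.14 in the ERT2 arrays. Every CRE-ERT2 array was above every ERT2 array. The difference was 0.22 (SE 0.08, 95% confidence interval 0.06 to 0.38), a ratio of 1.16 (1.04 to 1.30), and it did not pass over all genes (limma adjusted p = 0.142). By exact permutation of the group labels, two-sided, p was 0.1 for Nfkbiz, Nfkbib and Nfkb2, the smallest that 3 arrays against 3 allow. Nfkbiz passed under none of 14 alternative settings. Its limma adjusted p ran from 0.0533 after a further quantile normalization to 0.317 without CRE-ERT2 replicate 1. Its sign was the same under all 14, but several of these settings leave its log2 change as it is and cannot turn the sign. The 3 genes whose 6 centred log2 values were most like those of Nfkbiz were Gimap4, Map3k12 and Trim14, with root mean square differences of 0.02, 0.03 and 0.03 over the 6 arrays. They differed by 0.24, 0.24 and 0.23 and did not pass (limma adjusted p = 0.0893, 0.136 and 0.103). A difference near that of Nfkbiz follows from the way these genes were chosen and adds no support.

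The intervals say how much change the 3 arrays a group leave room for. Across the 9 genes the lowest lower bound was a ratio of 0.809, for Nfkbib, and the highest upper bound was 1.30, for Nfkbiz. With its own standard error, each gene would have needed a difference of 0.26 (Tnfaip3) to 0.33 (Relb) on the log2 scale to pass, or 1.20- to 1.26-fold. Smaller estimates would not have passed with these standard errors, and a p that misses the threshold does not show that the levels were equal. RMA values of genes near background understate a ratio.

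**Figure D2:**
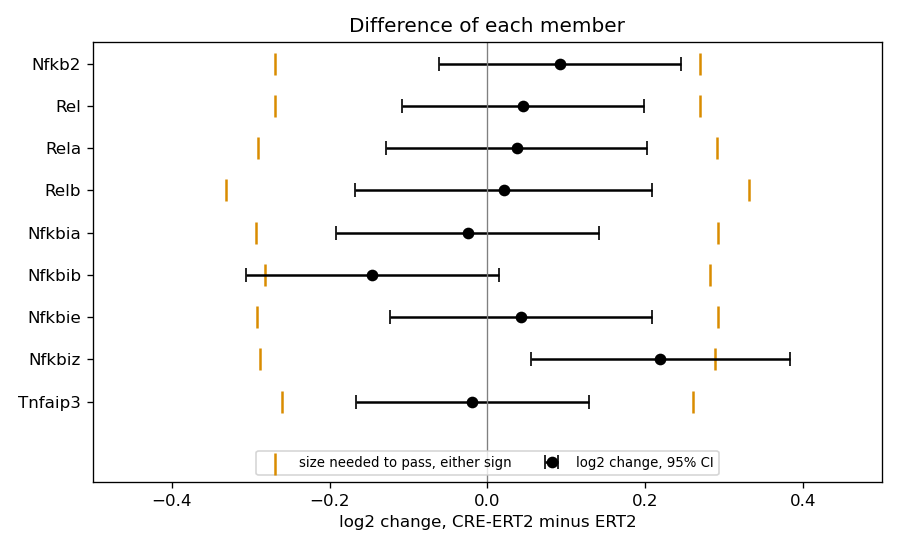
Log2 change, CRE-ERT2 minus ERT2, of each measured gene (horizontal axis), with points for the estimate, bars for the 95% confidence interval and orange ticks for the size that would have passed with the standard error of that gene. No point reaches its tick, and the Nfkbiz interval alone excludes 0.

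The rest of the pathway was read through 5 lists of 143 genes, of which 135 were measured. Of these 135, 19 rose and 1 fell in the CRE-ERT2 arrays, beside 2.30% of all genes higher and 2.28% lower. The lists were chosen with earlier results of these data known, so these counts are a description and not a test. The 20 were mostly receptors, ligands and target genes and not the core signalling machinery. The split over all genes depended on the setting: 50.2% of called genes were higher as deposited, 60.9% after a further quantile normalization, 63.1% with all probe sets tested and 42.9% with the dimmest genes left out. With a trended, robust variance 587 were higher and 957 lower. On the lists, 19 rose and 1 fell after the quantile normalization, with Ccl3 no longer called (limma adjusted p = 0.0635). The counts were 10 and 0 with all probe sets tested, and 22 and 4 with the trended variance. Without the dimmest genes 17 rose and 3 fell, of only 108 list genes then tested. Il18r1, Tlr1 and Ccl3 were among the dim genes left out there.

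Of 23 other IkB family genes and negative regulators, 0 passed with limma, beside 4.58% of all genes. An unadjusted p under 0.05 was found for 4 of the 23, near the 16.4% of all genes. The median log2 change was -0.01. The 2 with the smallest p were Nkrf, which encodes a nuclear repressor of NF-kB target promoters, and Commd1, which promotes turnover of p65. Nkrf had log2 values of 10.79, 10.69 and 10.66 in CRE-ERT2 arrays and 11.23, 10.98 and 10.93 in ERT2 arrays. Its difference of -0.33 was just outside the threshold (limma adjusted p = 0.0513), and it passed under 6 of 14 alternatives, among them leaving out ERT2 replicate 2 (0.0484) or ERT2 replicate 3 (0.0290). Commd1 had 8.59, 8.30 and 8.60 in CRE-ERT2 arrays and 8.90, 8.80 and 8.74 in ERT2 arrays, a difference of -0.32 (limma adjusted p = 0.0723) that passed under 2 of 14. In both genes, picked by their p, the groups did not overlap, as in 22.5% of all genes, with the CRE-ERT2 arrays lower.

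Of 27 genes of the IkB kinase complex and its canonical activators, 1 rose and 0 fell (3.70%, beside 4.58% of all genes called), with a median of -0.01. It was Tirap, which encodes the adaptor between Toll-like receptors and MYD88, at 9.08, 8.90 and 9.05 in CRE-ERT2 arrays and 8.62, 8.75 and 8.70 in ERT2 arrays. The difference was 0.32 (limma adjusted p = 0.0361). Bcl10, a scaffold that links antigen receptors to the IkB kinases, had the next smallest p, with means of 11.24 in CRE-ERT2 arrays and 11.41 in ERT2 arrays (-0.17, limma adjusted p = 0.270).

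Of 14 genes of the non-canonical pathway 2 rose and 0 fell (14.3%, beside 4.58% of all genes called), with a median of 0.07. Tnfrsf13c, which encodes the BAFF receptor, had log2 values of 12.69, 12.73 and 12.87 in CRE-ERT2 arrays and 11.88, 11.92 and 12.14 in ERT2 arrays. It rose by 0.78, or 1.72-fold (limma adjusted p = 0.000141). Ltb, which encodes lymphotoxin beta, the membrane anchor of the ligand for the lymphotoxin beta receptor, had 10.08, 9.94 and 9.78 in CRE-ERT2 arrays and 9.18, 9.35 and 9.26 in ERT2 arrays. Ltb rose by 0.67, or 1.59-fold (limma adjusted p = 0.000589). Both genes were called under all 14 alternatives, while Nfkb2 and Relb, the subunit genes of this branch, did not pass.

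Of 16 receptors, co-receptors and ligands of the canonical route, 7 rose, 1 fell and 8 did not pass (50% called, beside 4.58% of all genes). Il18r1, a chain of the interleukin-18 receptor, rose by 0.91 on the log2 scale, to a mean of 7.52 ± 0.18 in CRE-ERT2 arrays, against 6.62 ± 0.08 in ERT2 arrays (SD, n = 3 each). Tlr9, the receptor for unmethylated CpG DNA, rose by 0.71 (10.36 ± 0.07 in CRE-ERT2 arrays and 9.65 ± 0.10 in ERT2 arrays). Tlr1, which pairs with TLR2 on lipopeptides, rose by 0.69, with dim means of 7.21 in CRE-ERT2 arrays and 6.52 in ERT2 arrays. Ly96, the MD-2 protein that presents lipopolysaccharide to TLR4, rose by 0.61. Tlr4 itself went the other way and fell by 0.60, to 7.93 ± 0.17 in CRE-ERT2 arrays, against 8.53 ± 0.19 in ERT2 arrays (limma adjusted p = 0.00520). Lta, the soluble lymphotoxin gene, rose by 0.53. Tlr7 (0.44), a sensor of single-stranded RNA, and Tnf (0.37), the prototype NF-kB-activating cytokine, also rose and are named here after their values were seen. Adjusted p of the 8 genes was between 8.40e-05 and 0.0311 with limma. The groups did not overlap for any of the 8, nor for 22.5% of all genes, and the median of the 16 was 0.11. With 3 arrays a group, such separation nearly follows from a call and adds no support.

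**Figure D3:**
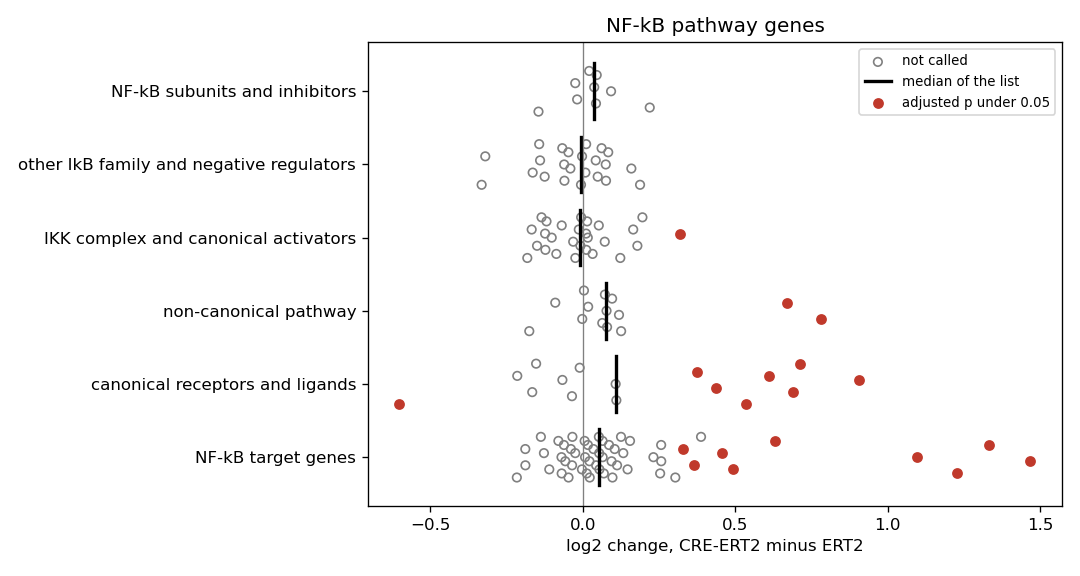
Log2 change, CRE-ERT2 minus ERT2 (horizontal axis), of each measured gene in 6 sets (rows), with filled points for genes with an adjusted p under 0.05 and a black bar for the median of the set. The 9 subunit and inhibitor genes lie between -0.15 and 0.22 with no filled point. To the right, 7 receptors and ligands and 9 target genes lie as filled points.

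The list of NF-kB target genes had 55 measured members, of which 9 rose and 0 fell (16.4%, beside 4.58% of all genes called), with a median of 0.05. The 4 with the largest changes were Cd74, Csf1, Cd80 and Ccnd1. Cd74, the invariant chain gene, rose by 1.47 and the growth factor gene Csf1 by 1.33. The costimulatory gene Cd80 rose by 1.23, and by 0.42 on a second probe set. With all probe sets tested, that second one did not pass (limma adjusted p = 0.206) and the kept one did (0.00232). Their means over the arrays were close, 7.72 for the kept one and 7.64, so keeping the highest mean can favour the larger rise. Ccnd1, the cyclin D1 gene, rose by 1.09. Ccnd1 had log2 values of 11.47, 11.41 and 11.40 in CRE-ERT2 arrays and 10.37, 10.34 and 10.29 in ERT2 arrays, which is a 2.14-fold rise (limma adjusted p = 1.56e-06). Il2ra, the alpha chain of the interleukin-2 receptor, had 12.20, 12.12 and 12.23 in CRE-ERT2 arrays and 11.57, 11.59 and 11.51 in ERT2 arrays, and rose by 0.63. Gadd45b, a stress gene, rose by 0.49. In each of these 6 genes all CRE-ERT2 arrays were above all ERT2 arrays, which nearly follows from the call. The other 3 called genes, named after their values were seen, were the chemokine gene Ccl3 (0.46), the interferon regulatory factor gene Irf1 (0.36, and 0.15 on a second probe set) and Ebi3 (0.33), a subunit of the cytokines interleukin-27 and interleukin-35. With all probe sets tested, neither probe set of Irf1 passed (limma adjusted p = 0.116 for the kept one and 0.521). Many of the called targets respond to other factors as well. The other 46 targets did not pass. Some of the called targets, Cd74, Cd80 and Csf1 among them, are also genes of mature B cells or macrophages. Of 7 mature B and plasma cell markers Cd22 rose (0.37) and Sdc1 fell by 0.44, with summed log2 values of 52.97 to 54.08 in CRE-ERT2 arrays and 53.18 to 53.78 in ERT2 arrays; the macrophage sums are given above. The part of such cells in the result was not tested.

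**Figure D4:**
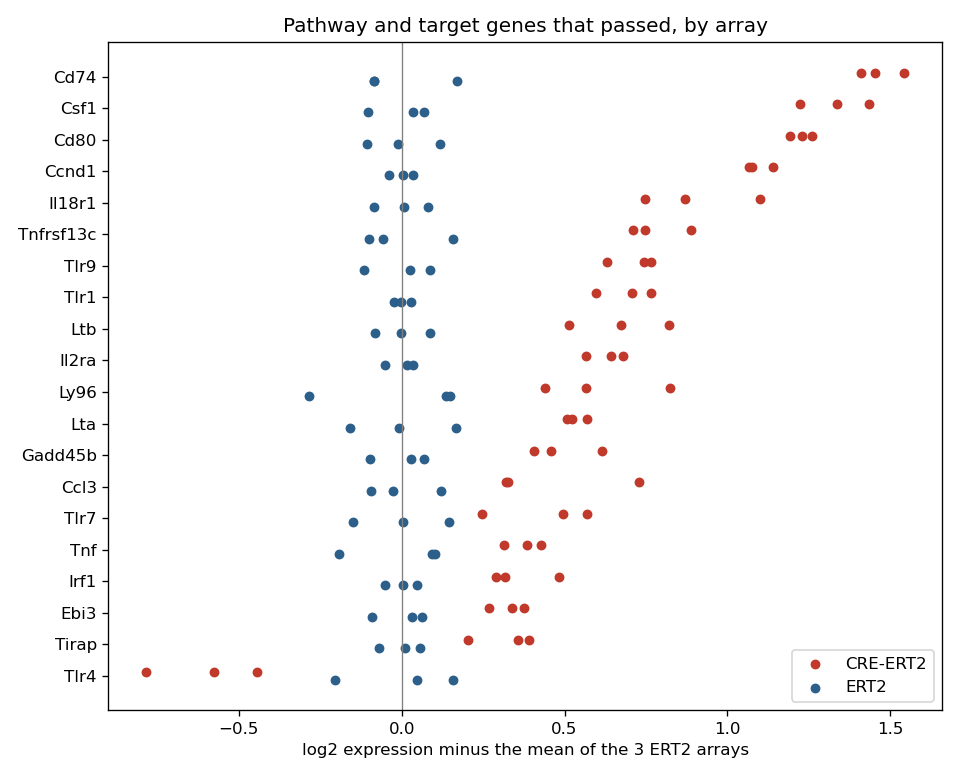
Log2 expression of the 20 called pathway and target genes in each array minus the mean of the 3 ERT2 arrays (horizontal axis), with CRE-ERT2 arrays in red and ERT2 arrays in blue. The red and blue points do not overlap in any gene, which nearly follows from the genes being called, and Tlr4 alone lies to the left.

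Of the called genes on the 5 lists, 15 had a promoter window and 5 of these held a kB match (Csf1, Ltb, Il2ra, Irf1 and Ebi3). The share among list genes that did not pass was 22 of 88. Stretches of 60 bases around the matches of the 3 that changed most are shown for comparison with those of the subunit and inhibitor genes above, which were not called, again with matches in capitals, in GRCm38.p6.
Csf1 (chr3:107760589-107760648, minus strand): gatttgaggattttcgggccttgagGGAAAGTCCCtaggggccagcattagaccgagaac
Ltb (chr17:35194395-35194454, plus strand): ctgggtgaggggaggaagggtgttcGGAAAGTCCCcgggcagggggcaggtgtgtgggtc
Il2ra (chr2:11642566-11642625, plus strand): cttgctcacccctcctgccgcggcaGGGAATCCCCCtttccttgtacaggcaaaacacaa
Genes with a match thus stood on both sides, with Csf1, Ltb and Il2ra called and Nfkb2, Rel, Nfkbia, Nfkbie and Tnfaip3 not called.

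Some of the weaker calls were lost when 1 array was left out, which does not show that this array decided them. Without CRE-ERT2 replicate 3, called genes fell from 914 to 453 over all genes. Of the list genes that lost their call there, Tnf, Ccl3 and Ebi3 had larger changes than with all arrays (0.41, 0.52 and 0.36). Tirap, Ly96 and Tlr7 had smaller ones (0.30, 0.50 and 0.41). Without CRE-ERT2 replicate 1, limma adjusted p was 0.124 for Tirap, 0.106 for Tlr7, 0.108 for Tnf, 0.0865 for Ccl3, 0.0794 for Ebi3 and 0.0730 for Irf1, and without CRE-ERT2 replicate 2 it was 0.0863 for Tnf and 0.112 for Ebi3. Without CRE-ERT2 replicate 3 it was 0.174 for Tirap, 0.0935 for Ly96, 0.143 for Tlr7, 0.0936 for Tnf, 0.0599 for Ccl3 and 0.0690 for Ebi3. Leaving out ERT2 replicate 1 gave 0.132 for Tirap, 0.0616 for Ly96, 0.105 for Tlr7, 0.0980 for Tnf, 0.137 for Ccl3 and 0.0941 for Ebi3, and leaving out ERT2 replicate 3 gave 0.0582 for Tirap, 0.0582 for Tlr7 and 0.0591 for Ccl3. The receptors and ligands that rose then numbered 4 without CRE-ERT2 replicate 3 or without ERT2 replicate 1, against 7 with all arrays. When all probe sets were tested, Tirap, Ly96, Tlr4, Lta, Tlr7, Tnf, Gadd45b, Ccl3, Irf1 and Ebi3 did not pass (adjusted p 0.0630 to 0.232), nor did Irf1 when the probe sets of a gene were averaged (0.0705).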

How the data were processed

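Biotin-labelled total RNA from 6 samples was hybridised to Affymetrix arrays, per the labels' protocols. The authors' deposited table gives 1 log2 value per probe set and array. The submitters' processing notes name RMA and Partek 6.5, with no role or order, and the log2 scale was read from the values; the build behind the array was not given in the sources used here. Platform annotation assigned 21789 of 35556 probe sets to exactly 1 gene, 1621 to several and 12146 to none. Per gene the single-gene probe set with the highest mean was kept, for 19938 genes, with no filter and no further normalization. Scanner files and scan dates were not used, so batches could not be tested.

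The CRE-ERT2 arrays were compared with the ERT2 arrays by limma 3.58.1 in R 4.3.3 (lmFit, eBayes, two-sided), with Benjamini-Hochberg adjustment over the 19938 genes and a threshold of 0.05; log2 changes are CRE-ERT2 minus ERT2. The fit was also run on simulated arrays with independent normal noise, which cannot speak to batches or to replicates that are not independent. Members, gene lists, tests and the naming rule were chosen with earlier results of these data known. The rule names all members, up to 6 called genes of each list with the largest change, or the 2 with the smallest p, and the 3 genes most like the member with the smallest p. Promoter windows come from RefSeq (GRCm38.p6). The number of arrays limits the precision.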

Additional observations from a re-analysis of the deposited data

How the results depend on the processing

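All 14 alternatives gave 0 called members, as did the fit reported above. Of 126 recomputed changes of the 9 members, 119 kept their sign. Several alternatives leave the log2 change of a gene with 1 probe set as it is, so they could not turn its sign. They are leaving out the dimmest genes, averaging probe sets, testing all probe sets, the trended variance and the replicate block. The sign turned for 4 members with small changes. Rela was at -0.0113 to 0.0763 when 1 array was left out, Relb at -0.0597 to 0.0843 and Nfkbia at -0.0734 to 0.0342, and after a further quantile normalization Nfkbia was at 0.0214 and Tnfaip3 at 0.00854. Of the members that kept their sign without 1 array, Rel was at 0.02 to 0.08, Nfkbie at 0.0048 to 0.09, Tnfaip3 at -0.03 to -0.0050, Nfkb2 at 0.07 to 0.12, Nfkbib at -0.19 to -0.11 and Nfkbiz at 0.17 to 0.25. That normalization moved the median of all genes to -0.01, against -0.03, and that of the members to 0.08, against 0.04. Of 333 recomputed values of 24 other named genes 0 changed sign, 39 lost a call and 8 gained one. Over all genes, 914 were called, 298 probe sets when all were tested (more features and unnamed probe sets), 1544 with a trended, robust variance and 453 to 979 when 1 array was left out. On the 5 lists, 10 genes rose and 0 fell when all probe sets were tested, and 13 to 20 rose when 1 array was left out.

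With the replicate number as a block (replicate block) 589 genes were called, 0 members were, and Tirap (adjusted p = 0.104), Tlr7 (0.0576), Tnf (0.0716) and Ebi3 (0.0738) lost their calls. The labels tie no arrays together by number, and the deviations of same-numbered arrays from their group means correlated at -0.11, -0.37 and -0.07. Arrays of different number correlated at -0.32 to 0.45, no array correlated best with its own number, and each CRE-ERT2 array had a different ERT2 array as its best, at 0.45, 0.40 and 0.18. How the replicates were derived is not known, so these are values only. Detection calls were not used here, so how far dim signals limit the members is unknown.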
